A study of Caenorhabditis elegans with 36 samples.

Results

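The genes described here are 9 autophagy genes of *Caenorhabditis elegans*, *lgg-1*, *lgg-2*, *bec-1*, *unc-51*, *atg-7*, *atg-9*, *atg-18*, *sqst-1* and *epg-2*, together with *hlh-30*, which encodes a transcription factor that controls many of them. They were chosen by name. Each of the 10 symbols matched 1 identifier among the 46093 rows of the deposited count table through the Ensembl WBcel235 annotation, and all 10 passed the filter on low counts in every comparison. The series holds 36 libraries of polyadenylated RNA from whole worms in 6 groups of 6, made for a study of stress response genes in long-lived mutants. The groups labelled *eat-2(ad1116)*, *ife-2(ok306)* and *osm-5(p813)* have wild-type N2 worms labelled 20 °C as their control, and the group labelled *glp-1(e2141)* has N2 worms labelled 25 °C. *eat-2* mutants feed less, *ife-2* encodes a translation initiation factor eIF4E, *osm-5* mutants have defective sensory cilia, and *glp-1(e2141)* is a temperature-sensitive allele that blocks germ line proliferation at the higher temperature. All groups were grown on NGM plates with OP50 bacteria, and the labels name no other treatment. The stage is labelled both as young adults that have not yet laid eggs and as adults on day 1. A growth temperature of 20 °C stands in the protocol of every library, including those labelled 25 °C.

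Autophagy encloses cytoplasm, aggregates or organelles in a double membrane, the autophagosome, which then fuses with lysosomes so that its content is broken down. The kinase UNC-51 (ATG1/ULK1) starts the process, BEC-1 (Beclin 1) is part of the lipid kinase complex that marks the forming membrane, ATG-9 and ATG-18 supply and organise that membrane, and ATG-7 is the activating enzyme that allows LGG-1 and LGG-2, the worm members of the Atg8 family, to be joined to lipid. SQST-1 (p62) and EPG-2 connect cargo to this machinery. HLH-30, the worm counterpart of TFEB, enters the nucleus in fasted worms and in several long-lived mutants and switches on autophagy and lysosome genes. mRNA levels do not measure autophagic flux, since lipidation and breakdown of these proteins occur after translation.

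Total counts ran from 35524715 to 55878280 per library with a median of 42821342.5, and the 10 genes had between 53 and 33745 counts in a library. Levels are given as CPM (counts per 1000000 counts), scaled by TMM over all 36 libraries. Fold changes come from edgeR's quasi-likelihood test of the 12 libraries of a comparison, scaled within those 12, with Benjamini-Hochberg adjustment over all genes tested. A gene is called at an adjusted p below 0.01. Counts of genes whose groups do not overlap rest on CPM scaled within the 12 libraries, so they can differ from the printed ranges. The labels were checked by the mutated genes. *ife-2* mRNA was lowest in the libraries labelled *eat-2*, at 3.15 to 3.88 CPM, and highest in those labelled *ife-2*, at 60.7 to 77.6 CPM, against 22.6 to 24.9 CPM in wild type labelled 20 °C. *ife-2* mRNA thus goes against the label of these groups. *glp-1* mRNA was 6.94 to 10.3 CPM in the *ife-2* group, 117 to 193 CPM in its own group, and at least 90.17 CPM elsewhere. *osm-5* mRNA was 0.331 to 1.21 CPM in its own group, against 2.65 to 3.10 CPM in the 20 °C control. The 25 °C control was also low for it, at 0.704 to 1.40 CPM. *eat-2* mRNA was scarce in every group, up to 2.15 CPM. Whether each allele lowers its own mRNA was not tested, so these levels do not settle the labels. Every group is called by its label throughout. The summed level of 20 germ line genes was 166 to 233 CPM in the libraries labelled *ife-2*, where 9 of the 20 genes reached 10 counts in all 6 libraries, against 2442 to 4820 CPM in all other libraries. In the libraries labelled *glp-1* it was 2761 to 4006 CPM, where the label would lead to few germ cells, and in their wild type 3545 to 4820 CPM. The library labelled *osm-5* replicate 3 stood apart from all others, with a TMM factor of 0.427 against 0.694 to 1.27 in the other 35, and with 7086 CPM of 15 sperm genes against at most 1139 CPM elsewhere. The *osm-5* value of each of the 10 genes is therefore given with and without it.

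*lgg-1* was the most abundant of the 10 transcripts and *epg-2* the least. In wild type labelled 20 °C, the level per length, in CPM per kilobase of exon, was 301 ± 17.1 (SD, n = 6) for *lgg-1*, and the other Atg8 gene, *lgg-2*, stood at 77.4 ± 5.76. *atg-18* followed at 55.2 ± 4.37. *sqst-1* at 26.7 ± 1.23 and *hlh-30* at 25.7 ± 1.83 lay within their spread of each other, as did *atg-7* at 19.2 ± 1.61 and *bec-1* at 18.6 ± 1.81, and *atg-9* at 15.0 ± 1.33 and *unc-51* at 14.1 ± 0.706. *epg-2* was at 4.92 ± 0.615 CPM per kilobase. Both Atg8 genes thus stood above all others per length.

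**Figure D1:**
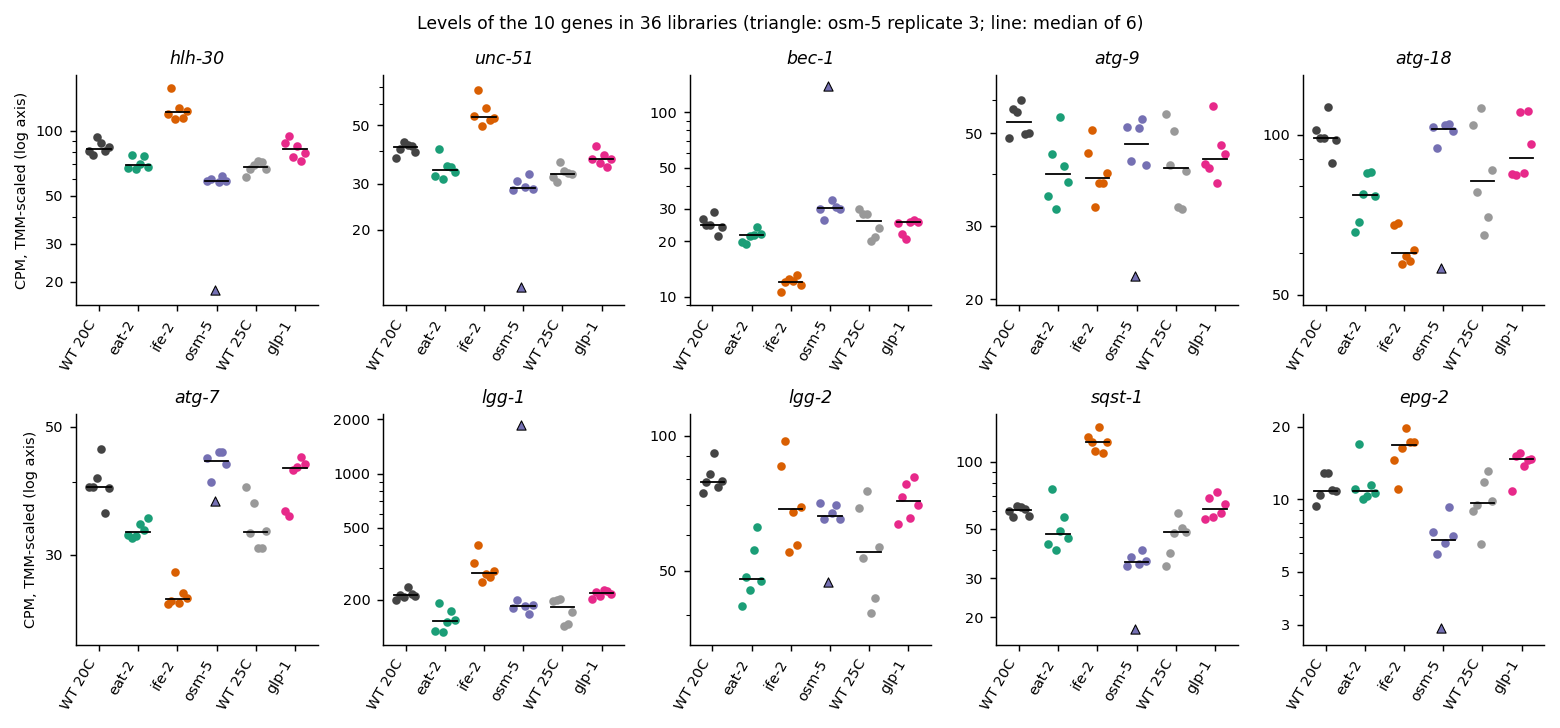
Level of each of the 10 genes in CPM (TMM over 36 libraries, log axis) in every library by labelled group, with the median of 6 as a line and *osm-5* replicate 3 as a triangle. The libraries labelled *ife-2* are highest for *hlh-30*, *unc-51* and *sqst-1* and lowest for *bec-1* and *atg-7*, and *osm-5* replicate 3 lies at 1863 CPM for *lgg-1*.

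Beside wild type labelled 20 °C, 7 of the 10 genes were called in the libraries labelled *eat-2*, all of them lower and none higher, where 31.2% of all genes tested were called (18.4% higher and 12.8% lower). At an unadjusted p below 0.05, 8 genes were lower and 0 were higher, but the share of all genes at that threshold was not computed. DESeq2 also called 7 lower and 0 higher. The calls were 5 with upper-quartile scaling, 4 without a filter on low counts and 2 in the fit of all 36 libraries, all lower. The groups did not overlap for 4 of the 10 genes, against 22.6% of all genes. The median log2 fold change of the 10 genes was -0.26, against 0.01 over all genes tested. In the fit of all 36 libraries, 12.1% of all genes differed between *eat-2* and wild type labelled 20 °C. Between *eat-2* and wild type labelled 25 °C it was 0.212% of all genes. None of the 10 genes differed between these latter groups (adjusted p from 0.798 to 0.979). That fit includes *osm-5* replicate 3. For *eat-2* against wild type labelled 20 °C it called 2 of the 10 genes, where the fit of those groups alone called 7. *eat-2* and wild type labelled 25 °C were not fitted alone, so they are not shown to be alike. In whole worms, fewer cells of a type and less RNA per cell cannot be told apart.

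In the libraries labelled *ife-2*, 9 of the 10 genes were called, 5 higher and 4 lower, where 85.1% of all genes were called (44.1% higher and 40.9% lower). The share called is close to that of all genes. The groups did not overlap for 7 of the 10 genes, against 77.5% of all genes. The median log2 fold change was 0.25 for the 10 genes and 0.17 for all genes. Since *ife-2* mRNA goes against both labels, directions in *eat-2* and *ife-2* are those of the labelled libraries. In *ife-2* they depended on the scaling. With scaling by total counts alone 1 gene was higher and 5 were lower, and with upper-quartile scaling 6 were higher and 1 was lower, while the median of all genes moved to -0.35 and 0.62. Relative to the median of all genes the values moved little between these scalings, and *sqst-1*, *hlh-30*, *epg-2*, *lgg-1* and *unc-51* lay above it and *lgg-2*, *atg-9*, *atg-7*, *atg-18* and *bec-1* below it under each. The value of each of the 10 genes in *ife-2* was also lower whenever any 1 of the 6 wild-type libraries labelled 20 °C was left out and TMM scaling was repeated, with 0.34 to 0.39 for *lgg-1*, 0.43 to 0.48 for *hlh-30*, 0.29 to 0.33 for *unc-51*, 0.88 to 0.91 for *sqst-1* and -0.56 to -0.49 for *atg-9*. All 9 calls held in these fits apart from that of *epg-2* (0.35 to 0.44), which was lost without replicate 1, 2, 5 or 6. These fits kept the minimum of 10 counts in 6 libraries, which a gene counted only in the remaining wild-type libraries cannot meet. The genes behind the TMM scaling therefore changed as well, while the median of all genes stayed at 0.16 to 0.17. The part of this in the lower values was not tested.

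In the libraries labelled *osm-5*, 1 of the 10 genes was called, *sqst-1*, which was lower, where 18% of all genes were called (7.01% higher and 10.9% lower). The groups did not overlap for 4 of the 10 genes, against 27.6% of all genes. Without *osm-5* replicate 3, 7 of the 10 were called, *bec-1* higher and *lgg-1*, *lgg-2*, *unc-51*, *sqst-1*, *epg-2* and *hlh-30* lower, where 45% of all genes were called (21.4% higher and 23.6% lower). In the libraries labelled *glp-1*, 1 gene was called against wild type labelled 25 °C, *hlh-30*, which was higher, where 22.9% of all genes were called (12% higher and 10.9% lower). The other 9 genes did not pass. At an unadjusted p below 0.05, 7 of the 10 were higher and 0 were lower, but the share of all genes there was not computed. The groups did not overlap for 1 gene, *lgg-1*, against 20.4% of all genes. In wild type labelled 25 °C 3 genes were called against wild type labelled 20 °C, *lgg-2*, *unc-51* and *hlh-30*, all lower, where 23.9% of all genes were called (13% higher and 11% lower). The groups did not overlap for 4 genes, against 19.4% of all genes. Of these, *lgg-1* and *lgg-2* did overlap on the scale of all 36 libraries. The median log2 fold change of the 10 genes was 0.29 in *glp-1*, against 0.02 for all genes, and -0.31 between the wild-type groups, against -0.02. These comparisons share wild type labelled 25 °C, which is the control in one and the first group in the other, so the opposite signs are not independent. Likewise, *eat-2*, *ife-2*, *osm-5* and wild type labelled 25 °C share wild type labelled 20 °C as control, so signs common to them are not independent.

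**Figure D2:**
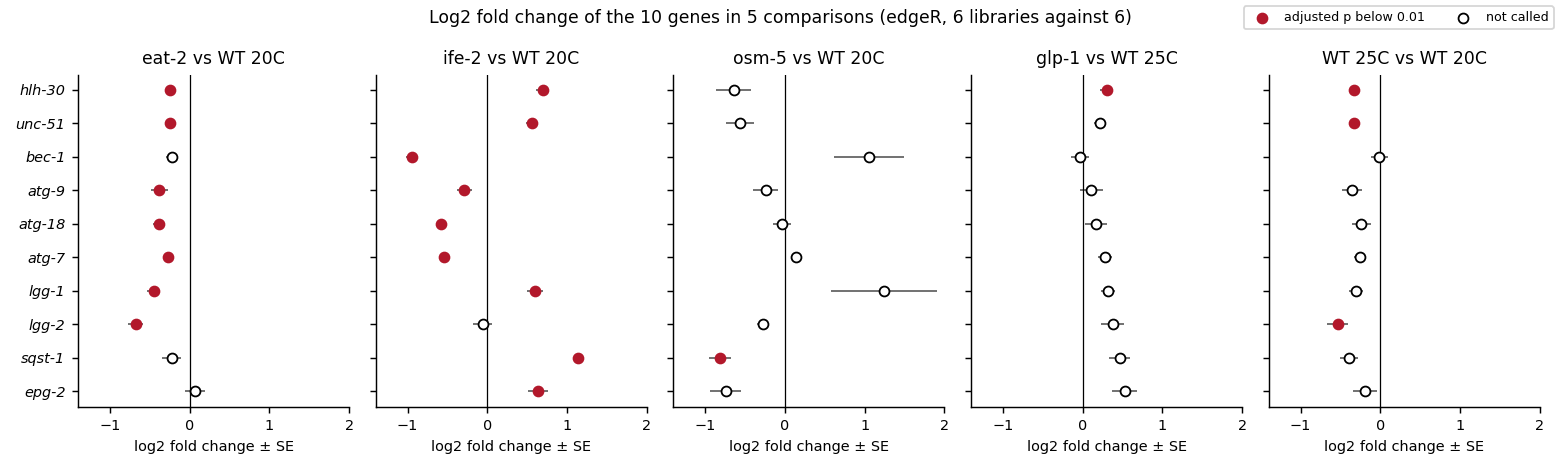
Log2 fold change of each gene (edgeR, ± SE, 6 libraries against 6) in the 5 comparisons, with filled points for an adjusted p below 0.01. In *eat-2* and in wild type labelled 25 °C nearly all points lie left of 0, in *ife-2* they lie on both sides from -0.95 for *bec-1* to 1.14 for *sqst-1*, and the wide bars of *lgg-1* and *bec-1* in *osm-5* come with 1 library.

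*hlh-30* (WBGene00020930, chromosome IV from 4014793 to 4034951 on the minus strand, 13 annotated transcripts) encodes the regulator. In wild type labelled 20 °C its level was 77.3 CPM in the lowest, 82.4 at the median and 93.7 in the highest library. In the libraries labelled *ife-2* these values were 113, 122 and 158 CPM, so that every library lay above every wild-type library. The log2 fold change was 0.69 (SE 0.0783, adjusted p = 5.03e-07), a 1.62-fold higher level. Scaled by total counts alone, it was 0.16 and no longer passed the threshold (adjusted p = 0.0643). The libraries labelled *eat-2* ran from 66.4 over a median of 69.0 to 77.5 CPM and overlapped the lowest wild-type library. There *hlh-30* fell by 0.24 on the log2 scale (SE 0.0568, adjusted p = 0.00378). In *osm-5* the lowest library was replicate 3, at 18.3 CPM, and the other 5 ran from 58.0 to 61.7 CPM, all below wild type. The log2 fold change was -0.64 (adjusted p = 0.0415), and without replicate 3 it was -0.49 (SE 0.0467, adjusted p = 9.92e-07).

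The level of *hlh-30* in wild type labelled 25 °C was 61.3, 67.8 and 72.8 CPM as lowest, median and highest value, below every library of wild type labelled 20 °C. The difference on the log2 scale was -0.33 (SE 0.0623, adjusted p = 0.00115). The libraries labelled *glp-1* held 72.4, 82.0 and 94.4 CPM and overlapped both wild-type groups. Against wild type labelled 25 °C, *hlh-30* was higher by 0.30 (SE 0.0785, adjusted p = 0.00901). Against wild type labelled 20 °C the same libraries gave -0.024, so the sign turned with the control. The call in *glp-1* was also lost with DESeq2's size factors (adjusted p = 0.0102), upper-quartile scaling (adjusted p = 0.0248), no filter (adjusted p = 0.0219), all 36 libraries in one fit (adjusted p = 0.194), and without any 1 of wild type 25 °C replicates 2 and 6 and *glp-1* replicates 1, 2, 4 and 6. In the fit of all 36 libraries, the order of the groups was *ife-2*, wild type 20 °C, *glp-1*, *eat-2*, wild type 25 °C and *osm-5*, and of these neighbours only *ife-2* and wild type 20 °C differed (adjusted p = 0.000939). With total counts alone that pair did not differ (adjusted p = 0.562).

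*unc-51* (WBGene00006786, chromosome V from 19995986 to 20004485, minus strand), the initiating kinase, had the pattern over the 6 groups most like that of *hlh-30* among the 10 genes. Its level in wild type labelled 20 °C ran from 37.6 over a median of 41.3 to 43.3 CPM. In *ife-2* it ran from 49.5 over 53.6 to 67.8 CPM, with no overlap, and rose by 0.55 (SE 0.0704, adjusted p = 1.94e-06), although with total counts alone the value was 0.02 (adjusted p = 0.796). In *eat-2* it ran from 31.2 over 33.8 to 40.5 CPM and fell by 0.25 (adjusted p = 0.00400), with 1 library, replicate 2, inside the wild-type range. Wild type labelled 25 °C ran from 30.5 over 32.8 to 36.3 CPM, below every library labelled 20 °C, and was lower by 0.33 on the log2 scale (adjusted p = 0.000745).

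The libraries labelled *glp-1* held 34.7, 37.3 and 41.7 CPM of *unc-51* as their lowest, median and highest value. The difference from wild type labelled 25 °C was 0.22 (adjusted p = 0.0263), which did not pass. *osm-5* replicate 3 held 12.1 CPM, the lowest level of this gene in any library, and the other 5 held 28.4 to 32.5 CPM. The log2 fold change was -0.57 (adjusted p = 0.0265), and -0.44 without replicate 3 (SE 0.0497, adjusted p = 4.67e-06). In the order of the groups, only *ife-2* and wild type 20 °C differed as neighbours (adjusted p = 0.00197), but not with total counts alone (adjusted p = 0.935).

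*bec-1* (WBGene00000247, chromosome IV from 5661141 to 5664425, minus strand), the Beclin 1 subunit of the class III phosphatidylinositol 3-kinase complex, moved the other way. Its level was 21.5, 24.5 and 28.7 CPM as lowest, median and highest in wild type labelled 20 °C and 10.6, 12.1 and 13.1 CPM in *ife-2*. No library of the latter group came near wild type. The log2 fold change was -0.95 (SE 0.0689, adjusted p = 2.23e-09), a level 1.93-fold lower, and it stayed a fall when scaled by total counts alone (-1.47) or by the upper quartile (-0.49, adjusted p = 3.89e-06). In *eat-2* *bec-1* ran from 19.2 over 21.6 to 24.01 CPM (-0.22, adjusted p = 0.0309), which overlapped wild type and did not pass.

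Neither the wild-type groups nor *glp-1* and its control differed in *bec-1* by more than the threshold allowed. Wild type labelled 25 °C ran from 19.9 over 25.8 to 29.7 CPM, with a log2 difference of -0.010 (SE 0.102, adjusted p = 0.945) from wild type labelled 20 °C. The libraries labelled *glp-1* ran from 20.7 over 25.3 to 25.9 CPM, with -0.033 (SE 0.109, adjusted p = 0.839) from wild type labelled 25 °C. In *osm-5* 5 libraries held 26.03 to 33.5 CPM and replicate 3 held 139 CPM. The log2 fold change was 1.05 (SE 0.436, adjusted p = 0.0762) with replicate 3 and 0.28 without it (SE 0.0660, adjusted p = 0.00223). In the order of the groups, *osm-5* at the top differed from wild type 25 °C (adjusted p = 0.00370), but not without replicate 3 (adjusted p = 0.0206), and *ife-2* stood last and differed from *eat-2* before it (adjusted p = 0.00412).

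*atg-9* (WBGene00020706, chromosome V from 349385 to 359658, plus strand), the membrane protein whose vesicles seed the autophagosome, was called lower in *eat-2* and *ife-2*. Its highest group mean, 53.7 ± 4.76 CPM (SD, n = 6) in wild type labelled 20 °C, was 1.31 times its lowest, 40.9 ± 6.18 CPM in *ife-2*, and no neighbours in the order of the 6 groups differed. It fell in *eat-2* by 0.38 on the log2 scale (SE 0.103, adjusted p = 0.00870), and in *ife-2* by 0.29 (SE 0.0899, adjusted p = 0.00719), and the groups overlapped in both. With upper-quartile scaling the value in *ife-2* was 0.16, which reverses its direction. In *osm-5*, replicate 3 held 22.7 CPM and the other 5 libraries 41.9 to 54.1 CPM, with a log2 fold change of -0.24 (SE 0.156, adjusted p = 0.231), and -0.13 without replicate 3 (SE 0.0711, adjusted p = 0.121).

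*atg-18* (WBGene00018294, chromosome V from 8629174 to 8631327, minus strand) encodes a WIPI protein that binds phosphatidylinositol 3-phosphate on the forming membrane. Wild type labelled 20 °C ran from 88.4 over a median of 98.4 to 113 CPM. The libraries labelled *eat-2* ran from 65.6 over 77.0 to 84.9 CPM and those labelled *ife-2* from 57.1 over 59.9 to 68.1 CPM, and neither overlapped wild type. *atg-18* fell by 0.38 in *eat-2* (SE 0.0743, adjusted p = 0.00121). In *ife-2* it fell by 0.58 (SE 0.0644, adjusted p = 3.86e-07), and by 0.13 with upper-quartile scaling (adjusted p = 0.0422). Wild type labelled 25 °C was spread from 64.9 to 112 CPM and *glp-1* from 83.9 to 111 CPM, and *atg-18* passed in neither comparison. In *osm-5*, 5 libraries lay at 94.3 to 104.5 CPM and replicate 3 at 56.3 CPM, with a log2 fold change of -0.039 with it and 0.044 without it (adjusted p = 0.808 and 0.424).

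*atg-7* (WBGene00010882, chromosome IV from 11078682 to 11081055, minus strand), the E1-like enzyme of both conjugation pathways, had the pattern most like that of *atg-18*. Wild type labelled 20 °C ran from 35.4 over 39.3 to 45.7 CPM. In *eat-2* the level was 32.1 to 34.8 CPM and in *ife-2* 24.6 to 28.0 CPM, both below every wild-type library, with falls by 0.27 (SE 0.0561, adjusted p = 0.00191) and by 0.54 (SE 0.0569, adjusted p = 2.24e-07). The fall in *ife-2* was by 0.09 with upper-quartile scaling and did not pass there (adjusted p = 0.130). *atg-7* was the gene least changed in *osm-5* replicate 3, at 37.2 CPM against 40.0 to 45.2 CPM in the other 5, and its log2 fold change of 0.14 in *osm-5* did not pass with this library (adjusted p = 0.0740) or without it (adjusted p = 0.0286). In the order of groups, *ife-2* stood last and differed from *eat-2* before it (adjusted p = 2.02e-05).

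*lgg-1* (WBGene00002980, chromosome II from 6346960 to 6347719, minus strand), the Atg8 protein whose reporter puncta are commonly counted as autophagosomes in worms, had 199, 211 and 234.98 CPM as lowest, median and highest value in wild type labelled 20 °C. The libraries labelled *eat-2* had 133, 152 and 192 CPM, all lower, and *lgg-1* fell by 0.45 (SE 0.0799, adjusted p = 0.000664). The libraries labelled *ife-2* had 249, 283 and 401 CPM, all higher, with a rise of 0.60 (SE 0.0969, adjusted p = 2.76e-05), which was 0.06 with total counts alone (adjusted p = 0.486). *lgg-1* was thus called in opposite directions in these groups under TMM scaling.

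In wild type labelled 25 °C *lgg-1* had 142, 183 and 200 CPM, and in *glp-1* 202, 217 and 226 CPM. These groups did not overlap, yet the log2 difference of 0.32 just missed the threshold (SE 0.0895, adjusted p = 0.0129). The difference of -0.30 between the wild-type groups missed it as well (adjusted p = 0.0158). In *osm-5*, replicate 3 held 1863 CPM, 10.1 times the median of the other 5 libraries, which ran from 168 to 199 CPM. With it the log2 fold change was 1.25 (SE 0.665, adjusted p = 0.152), and without it *lgg-1* fell by 0.20 (SE 0.0536, adjusted p = 0.00578). No neighbours in the order of its groups differed with this library, and *ife-2* differed from *glp-1* below it without (adjusted p = 8.58e-05).

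*lgg-2* (WBGene00002981, chromosome IV from 10934196 to 10935903, minus strand), the other Atg8 protein, showed the largest fall of the 10 genes in *eat-2*. Its level was 74.3, 79.0 and 91.4 CPM as lowest, median and highest in wild type labelled 20 °C and 41.9, 47.9 and 62.5 CPM in *eat-2*, with no overlap. It fell by 0.68 (SE 0.0908, adjusted p = 9.48e-05), a level 1.60-fold lower. In *ife-2* it ran from 55.0 over 68.5 to 97.2 CPM, across the whole wild-type range, and was the 1 gene not called there (-0.056, SE 0.119, adjusted p = 0.663). That value was -0.60 with total counts alone (adjusted p = 6.57e-05) and 0.39 with upper-quartile scaling (adjusted p = 0.00511), so the direction of *lgg-2* in *ife-2* changed with the scaling.

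Wild type labelled 25 °C held 40.4, 55.0 and 75.1 CPM of *lgg-2* and was lower than wild type labelled 20 °C by 0.54 on the log2 scale (SE 0.133, adjusted p = 0.00641), with its highest library at the lower edge of the 20 °C range. The libraries labelled *glp-1* held 63.6, 71.5 and 80.8 CPM, and the difference of 0.38 from wild type labelled 25 °C did not pass (adjusted p = 0.0504). In *osm-5* all 6 libraries, from 47.2 CPM in replicate 3 to 71.0 CPM, lay below their wild type. On the log2 scale the change was -0.28 (adjusted p = 0.0193), and -0.23 without replicate 3 (SE 0.0460, adjusted p = 0.000677).

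*sqst-1* (WBGene00011737, chromosome IV from 12034282 to 12036891, plus strand), the p62 cargo receptor, had group means from 33.3 ± 7.95 CPM in *osm-5* to 123 ± 12.1 CPM in *ife-2* (SD, n = 6). Wild type labelled 20 °C was tight, at 56.7, 60.9 and 63.0 CPM as lowest, median and highest value. The libraries labelled *ife-2* had 110, 123 and 143 CPM, all above every other library of the series. *sqst-1* rose by 1.14 (SE 0.0721, adjusted p = 3.81e-10), a 2.20-fold higher level, and it was the 1 gene of the 10 called higher in *ife-2* under every scaling tried, with 0.61 for total counts alone (adjusted p = 1.06e-05) and 1.59 for the upper quartile. Its log2 change was 0.97 above the median of all genes under each of these.

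The libraries labelled *osm-5* lay at the other end for *sqst-1*, from 17.7 CPM in replicate 3 over a median of 35.3 to 40.2 CPM, all below wild type. It fell by 0.81 (SE 0.141, adjusted p = 0.00111), and by 0.71 without replicate 3 (SE 0.0494, adjusted p = 5.02e-08). The libraries labelled *eat-2* were spread from 40.3 over 47.3 to 75.5 CPM, on both sides of wild type, and the difference of -0.23 did not pass (SE 0.120, adjusted p = 0.129). Wild type labelled 25 °C held 33.95, 48.1 and 59.1 CPM and *glp-1* 55.6, 61.7 and 73.4 CPM. Neither the difference of -0.40 between the wild-type groups (adjusted p = 0.0142) nor that of 0.46 in *glp-1* (adjusted p = 0.0123) passed. In the order of the groups, *ife-2* at the top differed from *glp-1* (adjusted p = 5.49e-07), but not with total counts alone (adjusted p = 0.0407), and *osm-5* at the bottom from wild type 25 °C (adjusted p = 0.00959), the latter not without *osm-5* replicate 3 (adjusted p = 0.0307).

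*epg-2* (WBGene00021468, chromosome I from 2300086 to 2302813, plus strand) encodes a coiled-coil scaffold protein that acts in the autophagy of P granule proteins in embryos. 78 bases of its exons, 3.42% of their length, overlap *tpxl-1* on the opposite strand, and whether the counting used the strand is not stated. Its level in wild type labelled 20 °C was 9.36, 10.9 and 12.9 CPM as lowest, median and highest. It rose by 0.63 in *ife-2* (SE 0.126, adjusted p = 0.000218), at 11.05 to 19.7 CPM with overlap, and by 0.12 with total counts alone, which did not pass (adjusted p = 0.512). *epg-2* did not pass in *eat-2* (0.064, adjusted p = 0.679), in *glp-1* (0.53, adjusted p = 0.0166) or in wild type labelled 25 °C (-0.19, adjusted p = 0.325). In *osm-5* it ran from 2.93 CPM in replicate 3 over 6.78 to 9.28 CPM, with a log2 fold change of -0.75 (adjusted p = 0.0141), and -0.62 without replicate 3 (SE 0.110, adjusted p = 0.000265). In the order of the groups, *osm-5* stood last and differed from wild type 25 °C (adjusted p = 0.00804), but not without replicate 3 (adjusted p = 0.0234).

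In *osm-5* replicate 3 the 10 genes were not shifted by a common factor. Relative to the median of the other 5 *osm-5* libraries, *lgg-1* was 10.1-fold higher and *bec-1* 4.67-fold higher, and the other 8 genes were lower, from 1.19-fold for *atg-7* to 3.20-fold for *hlh-30*. The counts behind these values were 33745 for *lgg-1*, 2525 for *bec-1* and 331 for *hlh-30*. In the same library the 15 sperm genes summed to 7086 CPM against 871 to 1139 CPM in the other 5, while 10 body wall muscle genes summed to 4640 CPM against 8320 to 11018 CPM and 10 neuronal genes to 237 CPM against 335 to 367 CPM. The intestinal sum was higher, at 2223 CPM against 1186 to 1637 CPM, and the germ line sum lower, at 2442 CPM against 3801 to 4560 CPM, as were the oocyte sum (4492 against 5961 to 8268 CPM) and the yolk sum (49633 against 71062 to 97245 CPM). All 15 sperm genes had at least 10 counts in every *osm-5* library, and none was at 0. The part of these cell types in the levels of *lgg-1* and *bec-1* was not tested.

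**Figure D3:**
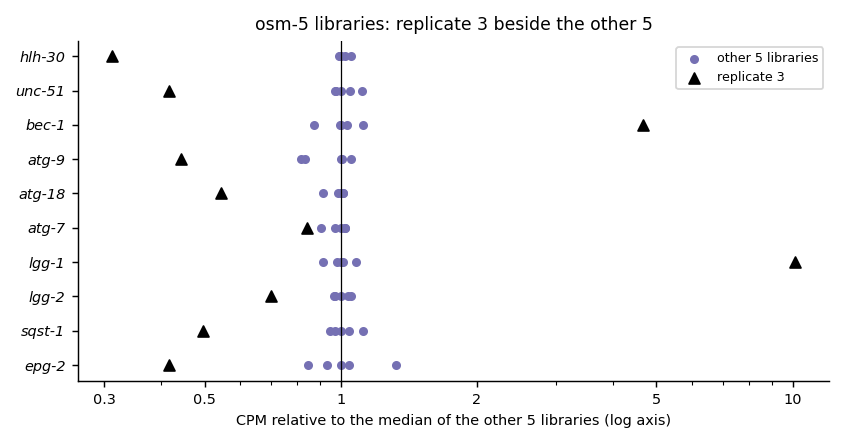
Level of each gene in the libraries labelled *osm-5* relative to the median of the 5 libraries other than replicate 3 (log axis), with replicate 3 as a triangle. The 5 libraries lie close to 1 for all 10 genes, and replicate 3 lies at 10.1 for *lgg-1*, 4.67 for *bec-1* and below 1 for the other 8.

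The composition of the worms differed beside these levels in *ife-2* too. In those libraries the 14 matched oocyte genes summed to 1102 to 2330 CPM and the 15 sperm genes to 19.4 to 24.1 CPM, against 5224 to 8656 and 729 to 937 CPM in wild type labelled 20 °C. The 6 yolk genes, made by the adult intestine, summed to 104213 to 182919 CPM against 31594 to 66508 CPM, and the 9 matched intestinal genes to 2922 to 4860 CPM against 1687 to 1915 CPM. Body wall muscle and neuronal sums were also higher, at 17331 to 25009 and 596 to 693 CPM against 10290 to 11393 and 408 to 444 CPM. In *eat-2* the oocyte sum ran from 1844 to 7017 CPM and the yolk sum from 9723 to 53180 CPM, so that libraries of this 1 group already differed in these transcripts. Its body wall muscle sum, 13134 to 14071 CPM, lay above that of every wild-type library labelled 20 °C. In *osm-5* the neuronal sum, 237 to 367 CPM, lay below wild type, and without replicate 3 the yolk sum lay above it. In *glp-1* the neuronal sum was 428 to 481 CPM against 346 to 406 CPM and the sperm sum 598 to 821 CPM against 961 to 1045 CPM in wild type labelled 25 °C. The part of these tissues in the changes of the 10 genes was not tested.

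Ratios between genes within a library do not depend on the scaling, and a pair of them was picked after the values were seen, as a description. The ratio of *sqst-1* to *atg-7*, both per length, was 3.71 to 5.35 in the 6 libraries labelled *ife-2* and 0.441 to 0.864 in the 6 labelled *osm-5* (from 0.711 without replicate 3), and at most 2.18 in any library outside *ife-2*. The ratio of *unc-51* to *bec-1* was 1.83 to 2.59 in *ife-2*, at most 0.972 in any other library, and 0.0402 to 0.542 in *osm-5* (from 0.401 without replicate 3). The cargo receptor and the initiating kinase therefore stood high against the enzyme and the Beclin in every library labelled *ife-2*.

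Whether a gene changed differently in the mutants was tested in the fit of all 36 libraries, by 6 contrasts for each of the 10 genes. Of the 60 differences, 27 passed. Between the change in *glp-1* and those in *eat-2*, *ife-2* and *osm-5*, 2, 2 and 5 of the 10 genes passed, where 24.2%, 59.7% and 37% of all genes did. Without *osm-5* replicate 3 in the fit they were 7, 6 and 6, where 40.4%, 70.8% and 42.0% of all genes passed. For *eat-2* minus *ife-2*, *eat-2* minus *osm-5* and *ife-2* minus *osm-5*, 6, 5 and 7 of the 10 passed, where 67.8%, 40% and 78.9% of all genes did. Without that library they were 9, 7 and 8, where 78.0%, 34.8% and 86.3% did. A gene that did not pass with that library in the fit is therefore not shown to change alike. *hlh-30* was higher in *ife-2* than in *osm-5* by 1.27 on the log2 scale (adjusted p = 6.10e-09) and higher than in *eat-2*, with -0.83 for *eat-2* minus *ife-2* (adjusted p = 1.33e-05). *sqst-1* followed, with 1.89 for *ife-2* minus *osm-5* (adjusted p = 3.22e-13) and -1.26 for *eat-2* minus *ife-2* (adjusted p = 3.45e-09). *bec-1* had the opposite sign, with -2.005 for *ife-2* minus *osm-5*, or -1.35 without replicate 3, and 0.83 for *eat-2* minus *ife-2* (adjusted p = 0.00412). *lgg-2* gave the largest difference between the change in *glp-1* and that in *eat-2*, 1.03 (adjusted p = 8.89e-05). For *lgg-1*, *ife-2* minus *osm-5* was -0.63 with replicate 3 and did not pass (adjusted p = 0.130), and 0.68 without it (adjusted p = 1.50e-07), so that 1 library turned its direction.

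The genes around the 10 were read from lists of the same pathway. Of 29 other genes of the autophagy machinery that were tested, 10 were lower and 0 higher in *eat-2* (at an unadjusted p below 0.05, 18 lower and 1 higher), with a median log2 fold change of -0.28. Of all genes, 31.2% were called in this comparison (18.4% higher and 12.8% lower). The share of all genes at the unadjusted threshold was not computed. The falls included *sepa-1*, a receptor for P granule proteins (-2.41, SE 0.567, adjusted p = 0.00397), *dct-1*, the BNIP3-like mitophagy receptor (-1.04, SE 0.137, adjusted p = 8.51e-05), and *epg-4*, an EI24-like protein of the endoplasmic reticulum (-0.63, adjusted p = 9.03e-05). The level of *sepa-1* was low, at 0.476 ± 0.470 CPM (SD) in *eat-2* and 2.52 ± 1.02 CPM in wild type. In the same libraries 16 of 21 subunits of the V-ATPase, the proton pump that acidifies lysosomes, were higher and 0 lower, with a median of 0.25. With total counts alone, 2 were higher and 1 lower. Among 14 lysosomal hydrolase and membrane genes 6 were higher and 1 lower, and the aspartic proteases *asp-2* (0.55), *asp-3* (0.50) and *asp-4* (0.49) led these, while the median of the list was -0.10. With total counts alone 3 were higher and 5 lower, with the upper quartile 4 and 3, and with DESeq2 6 and 4. The medians of the machinery and of the V-ATPase thus had opposite signs in *eat-2* under TMM scaling. The same held for wild type labelled 25 °C against wild type labelled 20 °C, with medians of -0.27 and 0.35. These comparisons share the control labelled 20 °C, so their signs are not independent.

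In *ife-2* the medians of the machinery and of the V-ATPase also had opposite signs under TMM scaling. Of the 29 machinery genes 8 were higher and 18 lower, with a median of -0.54, where 85.1% of all genes were called. This split changed with the scaling, to 12 and 13 with the upper quartile, 2 and 19 with DESeq2's size factors and 1 and 23 with total counts alone. All 5 genes listed as receptors and cargo fell, and those that fell most, *pgl-1* (-9.97, with means of 0.330 CPM in *ife-2* and 324 CPM in wild type) and *pgl-3* (-9.83), encode P granule components of the germ line. The receptors and cargo list had a median of -6.69. The other lists that make up the machinery had medians from -0.77 to -0.21. Of the V-ATPase subunits 19 were higher and 2 lower with a median of 1.27, with *vha-6*, a subunit of the intestinal apical membrane, highest (1.73, SE 0.0739, adjusted p = 2.81e-12) and *vha-18* lowest (-6.84). Of the hydrolase genes 10 were higher and 2 lower, led by *asp-4* (1.72) and *asp-2* (1.65), and of 10 upstream regulators 3 were higher and 6 lower. The median of all genes was 0.17 in this comparison.

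In *osm-5* 1 of 29 machinery genes was higher and 2 were lower, and 4 of 21 V-ATPase subunits were higher and 0 lower. Of all genes, 18% were called there (7.01% higher and 10.9% lower). Without replicate 3 the counts of the 2 lists were 5 and 4, and 20 and 0, where 45% of all genes were called (21.4% higher and 23.6% lower). *dct-1* (-1.17, adjusted p = 0.000211), the lipid transfer protein gene *atg-2* (-0.87, adjusted p = 0.000601) and *pha-4*, which encodes a FOXA factor (-1.01, adjusted p = 0.00888), fell, and *asp-4* (0.83), the V-ATPase subunit *vha-4* (0.70) and the Rag GTPase gene *ragc-1* (0.53) rose.

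The libraries labelled *glp-1* had 7 machinery genes higher and 2 lower, with a median of 0.17, and 0 V-ATPase subunits higher and 8 lower. Of all genes, 22.9% were called there (12% higher and 10.9% lower). With total counts alone 1 subunit was higher and 0 were lower. Against wild type labelled 20 °C the same libraries had 8 subunits higher and 0 lower, and 4 machinery genes higher and 5 lower, so the direction of the V-ATPase list turned with the control. The rises of *atg-16.1*, a partner of the ATG-12 and ATG-5 conjugate (2.93, SE 0.161, adjusted p = 4.50e-08), of the LGG-processing protease gene *atg-4.2* (2.03, SE 0.125, adjusted p = 1.25e-07) and of *vps-41*, a subunit of the HOPS complex that tethers membranes to lysosomes (2.01, SE 0.125, adjusted p = 1.37e-07), were each larger than the change of any of the 10 genes there, which was at most 0.53. *asp-1* (-0.71), *pgl-1* (-0.56) and *asp-6* (-0.45) fell. Between the wild-type groups 0 machinery genes were higher and 4 lower at 25 °C (at an unadjusted p below 0.05, 1 and 17), among them *dct-1* (-1.01) and the lipid kinase gene *vps-34* (-0.28). Of all genes, 23.9% were called between these groups (13% higher and 11% lower). Their share at the unadjusted threshold was not computed. There 18 V-ATPase subunits were higher and 0 lower, or 5 and 1 with total counts alone, and *asp-2* (0.60), *asp-4* (0.52) and *asp-1* (0.51) rose.

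**Figure D4:**
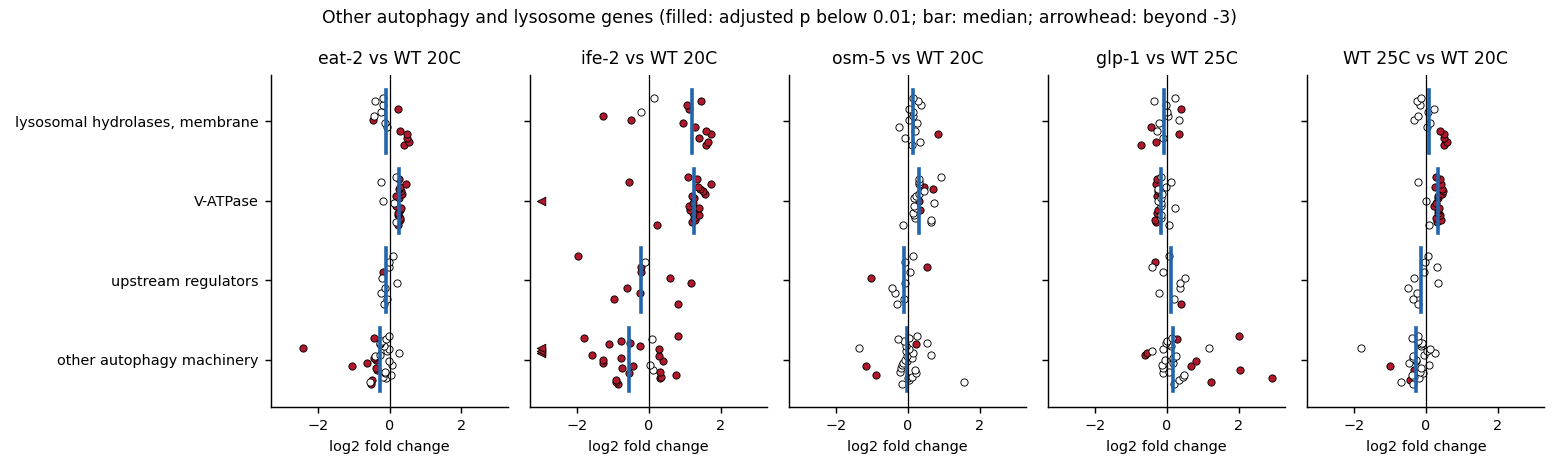
Log2 fold change of 74 other autophagy, regulator and lysosome genes in the 5 comparisons, with filled points for an adjusted p below 0.01, bars for list medians and arrowheads for values beyond -3. The median of the V-ATPase subunits lies right of 0 in *eat-2*, *ife-2*, *osm-5* and wild type labelled 25 °C (0.25, 1.27, 0.32 and 0.35) and left of it in *glp-1* (-0.17), while *vha-18* in *ife-2* lies far left.

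Likeness of pattern was measured as the root mean square difference of the 6 group means of log2 CPM, each gene centred on its own mean, and is a description over 6 groups. Among the 10 genes, *atg-7* and *atg-18* (0.069) and *unc-51* and *hlh-30* (0.080) were the pairs most alike, and *bec-1* and *sqst-1* (1.05) were least alike. Among the 17457 genes of the fit of 36 libraries, the patterns closest to *hlh-30* were those of T12A7.2 (0.036), *nhr-88* (0.044) and T05A8.3 (0.044). Those closest to *sqst-1* were F01D5.5 (0.078), *nhr-180* (0.127) and Y66D12A.13 (0.130). The genes closest to *lgg-1* were K07A12.8 (0.056), *nhr-257* (0.066) and *ethe-1* (0.071). The group means of *nhr-257* were only 0.0139 to 0.499 CPM, below the prior count of 0.5 used here. The means of *lgg-1*, and of all genes compared here, include *osm-5* replicate 3.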

How the data were processed

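Every one of the 36 libraries of polyadenylated RNA was loaded on each of 3 flowcells. The authors trimmed reads with cutadapt where needed, judged their quality by STAR alignment to WBcel235 of Ensembl release 90, quantified them with Salmon and collapsed transcripts to genes with tximport, and deposited whole-number counts per gene without normalization. Tool versions and the use of strand are not given in the sources used here. Total counts of 35524715 to 55878280 per library bound the precision of low genes. Libraries were grouped by their labels, which give no batch and describe 6 biological replicates per genotype.

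A gene had to reach 10 counts in 6 of the 12 libraries of a comparison, and was tested with edgeR 4.0.16 (glmQLFit, glmQLFTest, TMM) in R 4.3.3, with a call at an adjusted p (Benjamini-Hochberg) below 0.01. A standard error is the absolute log2 fold change divided by the root of the F statistic. The same test on all 36 libraries gave the order of the 6 groups over 15 pairs and the differences between mutants. On simulated libraries for *eat-2* against wild type (16627 genes, 200 of them changed 2-fold), edgeR recovered 98.5% of the changed genes with 0% false calls, and DESeq2 98% with 2.97%. All genes were given a common fixed dispersion there, with as many rises as falls. In the data 31.2% of all genes were called in *eat-2*, and the largest log2 change of the 10 genes was 0.68. The simulated rates therefore do not carry over to the calls above. Gene names and positions came from Ensembl WBcel235, release 115, which holds 45842 of the 46093 identifiers. The 10 genes are named throughout. From the pathway lists, each comparison names at most the 3 largest rises and 3 largest falls among called genes with at least 10 counts on average and groups without overlap. For *hlh-30*, *lgg-1* and *sqst-1* the 3 genes most like each in pattern are named, from log2 CPM with a prior count of 0.5. The genes, lists and tests were chosen with earlier results of these data known. *atg-11*, *oog-2* and *opt-2* of the lists matched no row. A planned search of promoters for binding motifs was not run, and sequences were not used here.

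Each call was repeated with DESeq2 1.42.0, with other scalings (DESeq2's size factors, the upper quartile, total counts alone), without the count minimum, on all 36 libraries jointly, and with the replicate number as a block. Thresholds of 0.05 on the adjusted p and of a 2-fold change were also applied, *glp-1* was set against wild type labelled 20 °C, and libraries were omitted 1 at a time. For the differences between mutants, scaling by total counts and omission of *osm-5* replicate 3 were added after the data were seen.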

Additional observations from a re-analysis of the deposited data

Results flagged for a closer look

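In a group of 6 libraries, the highest or lowest value was set apart when its gap to the nearest other value took more of the range than Dixon's 95% limit allows. This held for 10 of the 60 combinations of gene and group, where chance alone gives about 1 in 20. The library labelled *osm-5* replicate 3 gave 7 of the 10, with 1862.78 CPM of *lgg-1* and 139.385 CPM of *bec-1* as the highest values, and 47.1975 CPM of *lgg-2*, 12.1444 CPM of *unc-51*, 56.2506 CPM of *atg-18*, 17.7198 CPM of *sqst-1* and 18.2718 CPM of *hlh-30* as the lowest. The other 3 were *atg-7* in *ife-2* replicate 3 (27.9618 CPM), *hlh-30* in *ife-2* replicate 2 (158.458 CPM) and *epg-2* in *eat-2* replicate 2 (17.0076 CPM), each the highest of its group.

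Of 60 differences of change between mutants, tested in the edgeR fit of all 36 libraries, 27 had an adjusted p below 0.01, where 24.2% to 78.9% of all genes did in the 6 contrasts. Between the change in *glp-1* and that in *eat-2*, *lgg-2* (1.029) and *atg-7* (0.5234) differed on the log2 scale. Between *glp-1* and *ife-2*, *atg-7* (0.8977) and *atg-18* (0.8357) differed. Without *osm-5* replicate 3 in the fit, 7 and 6 genes passed in these contrasts, where 40.4% and 70.8% of all genes did. Between *glp-1* and *osm-5*, the differences were 0.6708 for *lgg-2*, 0.7937 for *unc-51*, 1.293 for *sqst-1*, 1.286 for *epg-2* and 0.9552 for *hlh-30*, and all 5 still passed without *osm-5* replicate 3. The mutants with a common control were compared directly. For *eat-2* minus *ife-2* the values were -0.5187 for *lgg-2*, 0.8335 for *bec-1*, -0.6997 for *unc-51*, 0.3743 for *atg-7*, -1.257 for *sqst-1* and -0.8312 for *hlh-30*. With total counts alone, *lgg-2* (adjusted p = 0.349), *unc-51* (adjusted p = 0.0959) and *hlh-30* (adjusted p = 0.0486) did not pass there.

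For *eat-2* minus *osm-5* the log2 values were -1.569 for *lgg-1*, -1.171 for *bec-1*, -0.3591 for *atg-7*, 0.6295 for *sqst-1* and 0.8474 for *epg-2*. Without *osm-5* replicate 3, *lgg-1* was -0.23 and did not pass (adjusted p = 0.0504), and *bec-1* was -0.49 (adjusted p = 5.10e-05). With total counts alone *atg-7* was -0.21 and did not pass (adjusted p = 0.271). For *ife-2* minus *osm-5* the log2 values were -2.005 for *bec-1*, 1.053 for *unc-51*, -0.7334 for *atg-7*, -0.6073 for *atg-18*, 1.887 for *sqst-1*, 1.299 for *epg-2* and 1.267 for *hlh-30*. All 7 of these passed with total counts alone and without *osm-5* replicate 3 as well.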

How the results depend on the processing

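Of 360 values of the 10 genes under the alternatives that kept all libraries, 286 kept their direction and their side of the threshold, 33 lost and 27 gained a call, and 14 changed sign. Called genes in *eat-2* were 7, and 4 without a filter, 2 with all 36 libraries in one fit and 0 with a 2-fold change required. In *ife-2* the 9 calls became 1 with a 2-fold change required. In *osm-5* the 1 call became 3 with DESeq2, 0 with total counts alone, 5 with all 36 libraries, 5 at an adjusted p below 0.05 and 0 with a 2-fold change. In *glp-1* the 1 call became 3 with DESeq2, 0 with DESeq2's size factors, 7 with total counts alone, 2 with the upper quartile, 0 without a filter, 6 at an adjusted p below 0.05, 0 with a 2-fold change and 0 with wild type labelled 20 °C as control. Between the wild-type groups the 3 calls became 8 with total counts alone, 5 with the upper quartile, 1 with all 36 libraries, 7 at an adjusted p below 0.05 and 0 with a 2-fold change. In the fit of all 36 libraries, 12.1% of all genes were called for *eat-2*, 35.5% for *osm-5* and 13% between the wild-type groups. The share of all genes was not computed for the other alternatives that kept all libraries, so those counts cannot be set against it. Neighbours in the order of groups that differed numbered 8 of 50 and 3 with total counts alone, and differences between mutants that passed numbered 27 and, without *osm-5* replicate 3, 43, where 34.8% to 86.3% of all genes passed in the 6 contrasts. The cause of these changes was not tested.

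Leaving out 1 library at a time gave 5 to 8 calls for *eat-2*, 8 to 9 for *ife-2*, 1 to 7 for *osm-5*, 0 to 1 for *glp-1* and 2 to 5 between the wild-type groups. The *osm-5* count was 7 without *osm-5* replicate 3, where 45% of all genes were called, and 2 without replicate 5. For the other fits with a library left out the share of all genes was not computed. The *glp-1* call was lost without wild type 25 °C replicate 2 or 6 or without *glp-1* replicate 1, 2, 4 or 6, and the wild-type count was 5 without wild type 25 °C replicate 1. In *ife-2* the 10 fold changes were lower without any 1 wild type 20 °C library, in fits where the genes behind the scaling also changed.

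With total counts alone *epg-2* was -0.051 in *eat-2*, *atg-7* -0.18 in *osm-5* and *bec-1* 0.16 in *glp-1*. With the upper quartile, *lgg-2* was 0.39 and *atg-9* 0.16 in *ife-2*. With wild type labelled 20 °C as control of *glp-1*, *lgg-2* was -0.16, *unc-51* -0.12, *atg-9* -0.25, *atg-18* -0.066 and *hlh-30* -0.024. Between the wild-type groups *bec-1* was 0.0028 with DESeq2, 0.0031 with DESeq2's size factors, 0.024 without a filter and 0.011 with all 36 libraries. With 1 library left out, *epg-2* in *eat-2* ran from -0.044 to 0.10, *lgg-2* in *ife-2* from -0.32 to 0.022, *lgg-1* in *osm-5* from -0.20 to 1.43, *atg-18* in *osm-5* from -0.092 to 0.044, *bec-1* in *glp-1* from -0.092 to 0.011 and *bec-1* between the wild-type groups from -0.046 to 0.066.

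Replicate numbers are shared between groups, but in no comparison did all same-numbered libraries deviate together, with correlations from -0.284 to 0.558 in *eat-2*, -0.199 to 0.173 in *ife-2*, -0.237 to 0.0491 in *osm-5*, -0.714 to 0.608 in *glp-1* and -0.63 to 0.483 between the wild-type groups. With the replicate block the calls numbered 5 for *eat-2*, 8 for *ife-2*, 0 for both *osm-5* and *glp-1* and 2 between the wild-type groups, and few libraries correlated best with their own number (0 or 1 of 6 per group).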
